A study of Mus musculus with 30 samples.

Results

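The subject of this report is 1 contrast: how far the cadmium effect on mouse pancreatic islet RNA after 18 weeks departed from the cadmium effect after 6 weeks. It is the difference of differences, cadmium minus vehicle at 18 weeks less cadmium minus vehicle at 6 weeks, and it was fitted over all genes in the 20 in vivo libraries of the 30 in the series. All 20 libraries are RNA-seq of islets purified on a density gradient from male WT mice of strain C57BL/6N, so sex, strain and genotype are shared by every group. The 4 groups are 5 libraries from 18 weeks of 1 mM CdCl2, 6 libraries from 18 weeks of vehicle, 4 libraries from 6 weeks of 1 mM CdCl2 and 5 libraries from 6 weeks of vehicle. The sources used here do not give the vehicle, how the dose was delivered or how old the mice were. Nor do the labels say that the libraries of a group came from separate animals, so a p-value here speaks of the scatter among these libraries alone, and that scatter may be technical.

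Cadmium is a poisonous metal with a strong affinity for cysteine thiols, and it can take the place of zinc in proteins. Cells answer it through the metal-sensing factor MTF1, which drives metallothioneins, small cysteine-rich proteins that bind zinc and cadmium, and zinc exporters. Islets hold the insulin-secreting beta cells, which store much zinc with insulin, and lie within acinar tissue, the exocrine pancreas that makes digestive enzymes. An islet preparation therefore also carries RNA of acinar, duct, stromal, endothelial and immune cells.

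Every library had the hormone genes that define islets. The 8 islet hormone genes held 13.2 to 21.2% of counts in cadmium and 14.4 to 19.9% in vehicle libraries of 18 weeks, against 22.1 to 25.2% in cadmium and 24.2 to 25.8% in vehicle libraries of 6 weeks. Total counts were 21573301 to 51852364 in cadmium and 9092759 to 51404595 in vehicle libraries of 18 weeks, and 49953778 to 58366797 in cadmium and 49564350 to 55504925 in vehicle libraries of 6 weeks. Cadmium library 5 and vehicle libraries 4 and 6 of 18 weeks were the shallowest, at 21573301, 14751249 and 9092759 counts. Protein-coding genes held 86.8 to 91.5% of counts in cadmium and 76.7 to 90.1% in vehicle libraries of 18 weeks, against 98.4 to 98.6% and 98.5 to 98.8% at 6 weeks. Vehicle at 18 weeks differed from vehicle at 6 weeks in 16110 of 22306 genes (72.2%), so the contrast joins library sets that stood far apart before cadmium is considered. Duration, age and anything else that differs between these sets cannot be told apart. Within the vehicle 6-week group, libraries 1 to 3 stood apart from 4 and 5 by more counts of macrophage and stromal genes, and within the cadmium 18-week group libraries 3 and 4 had the highest acinar share. The larger shifts in list medians and named genes without them are given beside the values.

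In the quasi-likelihood fit of edgeR, 0 of 22306 genes (0%) passed an adjusted p of 0.05 for the difference of the cadmium effects, and the lowest adjusted p was 0.155. At an unadjusted p under 0.05 stood 3740 genes (16.8%), 2044 with a positive difference (9.16%) and 1696 with a negative one (7.6%). A positive difference means that cadmium over vehicle was higher at 18 than at 6 weeks. In the same fit the 18-week effect alone was called in 820 genes (3.68%), 569 higher (2.55%) and 251 lower (1.13%) with cadmium. That count rests on a few libraries: without cadmium libraries 3 and 4 of 18 weeks it was 28, with 28 higher and 0 lower, without library 4 alone it was 150, and with the acinar share of counts as a covariate it was 0. The 6-week effect alone was called in 0 genes (0%), with 633 at an unadjusted p under 0.05 (2.84%) and a lowest adjusted p of 0.178. A call at 18 weeks and none at 6 weeks does not show that the 2 effects differ, and the test of that difference is the count of 0. The median SE of a log2 difference was 0.235, against 0.160 for the 18-week and 0.172 for the 6-week effect. These SEs rest on 1 estimate of spread per gene shared by the 4 groups. The median SD of log2(CPM + 1) between libraries was 0.151 in cadmium and 0.169 in vehicle at 18 weeks, against 0.087 and 0.090 at 6 weeks. The shared estimate may thus understate the error of the 18-week effect. A fit of the 18-week libraries alone called far fewer genes, as given below.

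Other analyses of the same counts did call genes for the difference. DESeq2 called 341 (171 positive and 170 negative), limma-voom with library weights 387 (131 and 256), the edgeR fit of all 30 libraries 382 (204 and 178), and the edgeR fit without the 3 shallowest libraries 814 (446 and 368). In all, 141 genes were called by all 4 of these analyses, 49 with a positive and 92 with a negative difference, out of 1073 called by at least 1. These 4 were singled out because they called the most genes, and most of the other settings tried called 0. They also share the same counts, so a call by all 4 is not independent support. Without vehicle 6-week libraries 1 to 3 the edgeR fit again called 0, with 1294 genes at an unadjusted p under 0.05 and a lowest adjusted p of 0.838. Differences given below for a single gene are log2 values ± SE from the edgeR fit and did not pass its test. "Rose" and "fell" are used only of the 18-week effect where it was called in that fit of all 20 libraries, and every "fell" is lost without cadmium libraries 3 and 4.

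**Figure D1:**
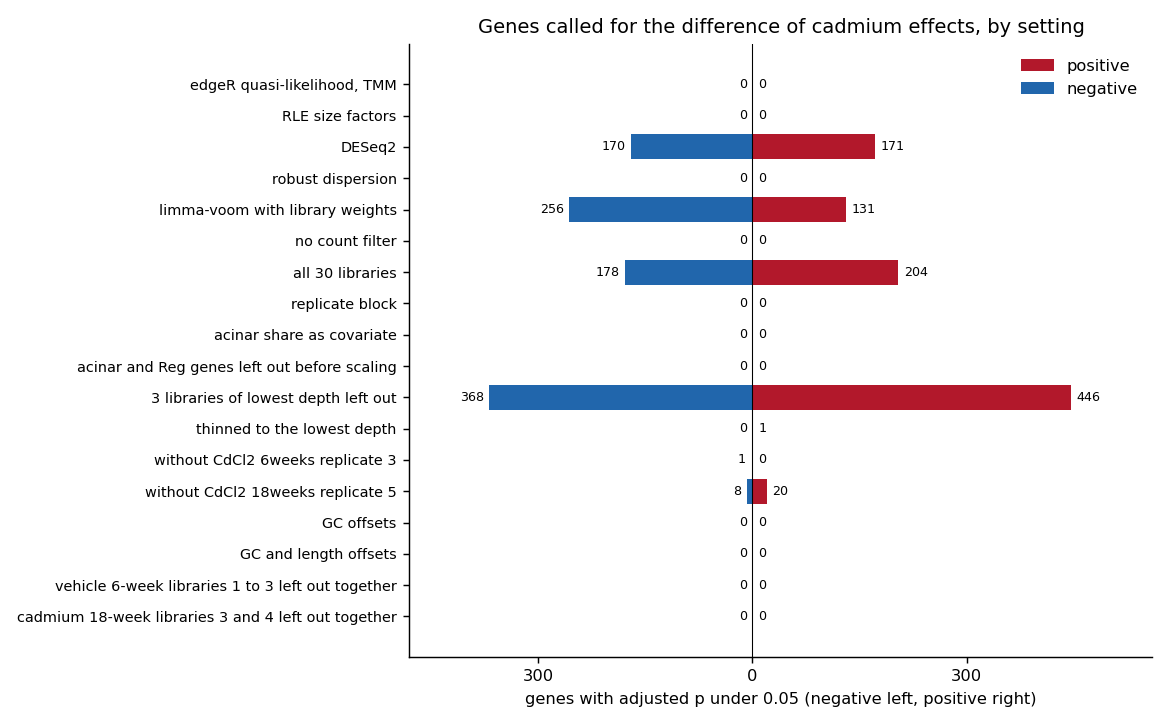
Number of genes called for the difference of cadmium effects (18 weeks minus 6 weeks) by analysis setting, at an adjusted p of 0.05. The edgeR fit called 0 genes, DESeq2 341, limma-voom with library weights 387, the fit of all 30 libraries 382 and the fit without the 3 shallowest libraries 814.

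Transcripts of digestive enzymes, among the most abundant of the cell-type lists, differed in 1 direction. All 40 acinar genes listed were tested and all had a positive difference, with a median of 2.77, against -0.003 over all 22306 genes, 49.7% of which were above 0. None was called for the difference, and 39 stood at an unadjusted p under 0.05 on the positive side (9.16% of all genes did). At 18 weeks 39 of 40 rose with cadmium (2.55% of all genes did), with a median log2 effect of 3.39, while the median 6-week effect was 0.62 and 0 were called. One of the 40, Cpa3, is the carboxypeptidase of mast cells and not an acinar enzyme, and stood at 11 or fewer counts in every 18-week library. Acinar RNA was lower in vehicle islets at 18 than at 6 weeks, with a median log2 value of -2.10.

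The acinar list held 3.65, 1.66, 9.64, 19.8 and 6.60% of counts in the cadmium libraries of 18 weeks, against 0.267 to 1.88% in vehicle. At 6 weeks it held 3.79 to 8.39% in cadmium and 2.78 to 5.14% in vehicle libraries. Cadmium libraries 3 and 4 of 18 weeks stood highest of all 20, cadmium library 2 of that time lay within the vehicle range, and the groups overlapped at both times. In bulk RNA, fewer cells of a type and less RNA per cell cannot be told apart.

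Sycn, which encodes syncollin of the zymogen granule membrane, showed the pattern in single libraries. Its level was 434, 199, 1363, 3742 and 724 CPM (read counts scaled to a common library size) in cadmium and 39.0, 77.2 and 186 CPM (lowest, median and highest) in vehicle libraries of 18 weeks. At 6 weeks it was 372, 532, 585 and 769.9 CPM in cadmium and 395, 525, 366, 273 and 358 CPM in vehicle libraries. All 5 cadmium libraries of 18 weeks lay above all 6 vehicle libraries of that time, and the 6-week groups overlapped. The difference of the effects was 3.17 ± 0.78, from 3.73 at 18 weeks and 0.56 at 6 weeks. Without cadmium libraries 3 and 4 of 18 weeks it was 1.66, and the list's median was 1.46.

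Trypsinogens, the precursors of trypsin, moved alongside. The difference was 2.95 ± 0.73 for Try5, 2.998 ± 0.80 for Try4, 2.81 ± 0.64 for Try10 and 2.97 ± 0.75 for Prss2, and all 4 rose at 18 weeks. Try5 also stood above every vehicle library in all 4 cadmium libraries of 6 weeks, at 990 CPM or more against at most 734 CPM. These genes are near-identical copies, and the sources used here do not say how reads that fit several of them were counted, so their separate values are uncertain. Spink1, the trypsin inhibitor of the same granules, had a difference of 2.88 ± 0.71. Ctrb1, a chymotrypsinogen, had 2.96 ± 0.74, and Cpa1, a pancreatic carboxypeptidase, 2.76 ± 0.74. Ptf1a, the transcription factor that maintains acinar identity, had 1.88 ± 0.74. Without cadmium libraries 3 and 4 of 18 weeks the values of these 8 genes ran from 0.84 for Ptf1a to 1.94 for Try5. With the acinar share as a covariate, which these genes largely make up, they ran from -0.68 for Ptf1a to 0.45 for Try10.

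Acinar promoters are known for sites of the PTF1 complex, which pair an E-box with a TC-box. The 250 bases before the start of Ctrb1 and Prss2 are shown because both genes follow the pattern above and hold the TC-box letters TTTCCC, in capitals, on either strand (RefSeq, GRCm38.p6, read 5′ to 3′ on the gene's strand; Ctrb1 is chr8:111691011-111691260 on the minus strand and Prss2 chr6:41521526-41521775 on the plus strand).
Ctrb1: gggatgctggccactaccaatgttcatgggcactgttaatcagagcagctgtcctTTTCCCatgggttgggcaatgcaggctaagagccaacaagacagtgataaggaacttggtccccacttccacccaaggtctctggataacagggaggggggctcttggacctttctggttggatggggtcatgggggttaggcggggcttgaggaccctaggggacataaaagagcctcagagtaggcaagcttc
Prss2: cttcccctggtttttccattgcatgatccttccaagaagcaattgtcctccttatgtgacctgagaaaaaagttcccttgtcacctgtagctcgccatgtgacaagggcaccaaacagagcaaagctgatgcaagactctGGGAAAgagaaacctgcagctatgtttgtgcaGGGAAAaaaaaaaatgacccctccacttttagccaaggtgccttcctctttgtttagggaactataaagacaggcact
Ctrb1 holds 1 match, 195 bases before the start, and Prss2 holds 2, at 110 and 78 bases before it. Such a window was at hand for 30 of the 40 acinar genes, and 8 of the 30 (26.7%) held the letters. Over all 32851 windows of this length the share was 21.95%. All 8 also held an E-box, CANNTG, and both motifs stood together in 26.7% of the acinar genes and 14.2% of all windows. An acinar gene counted if any of its windows matched, so its shares are per gene and those over all windows are per window. The 2 kinds of share are therefore not strictly alike. A match is a run of letters and not a shown site.

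**Figure D2:**
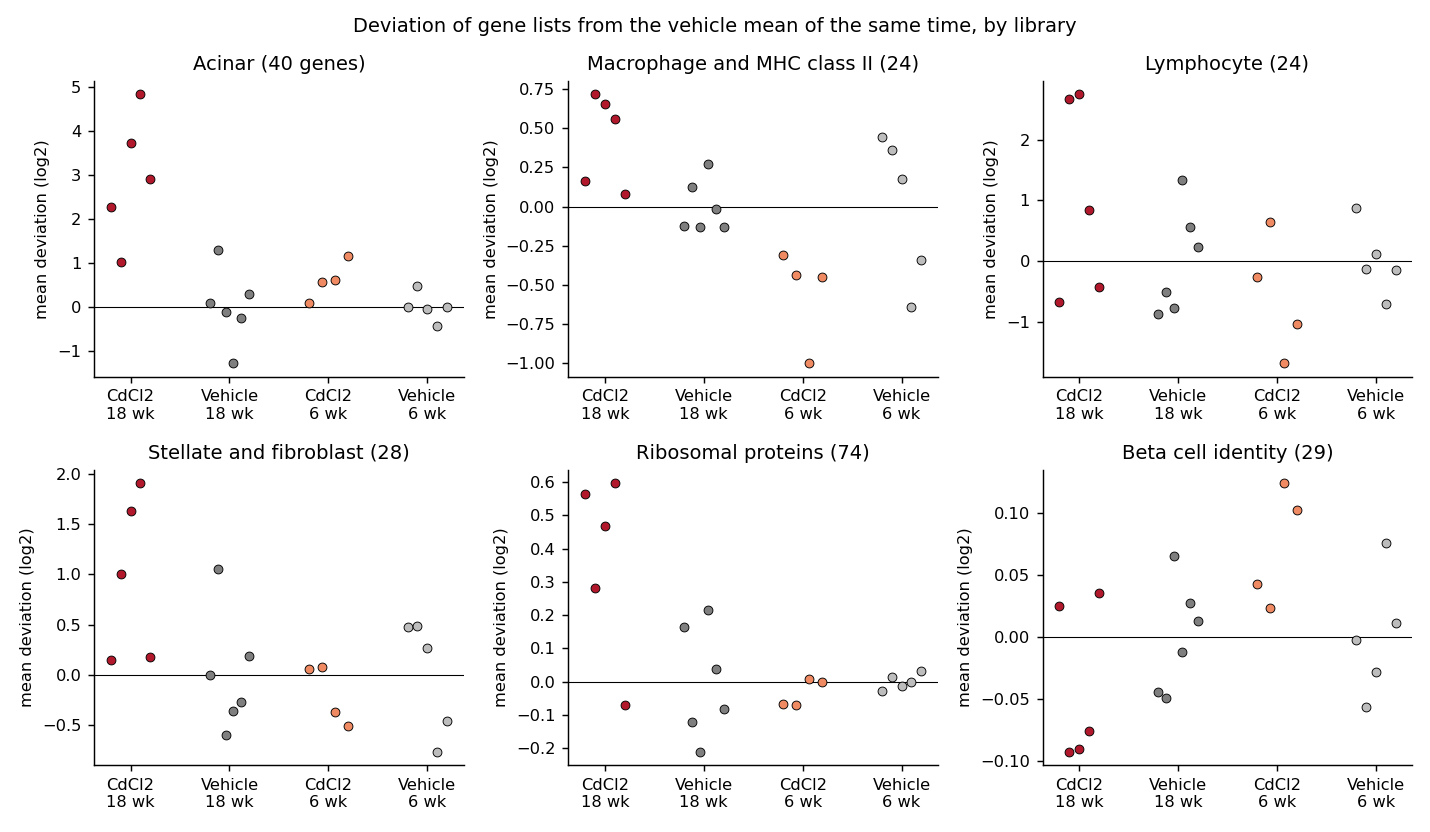
Mean log2 deviation of 6 gene lists in each library from the mean of the vehicle libraries of the same time; each point is 1 library. Acinar genes at 18 weeks are highest in cadmium libraries 3 and 4, but 1 other cadmium library of that time lies within the vehicle range. Macrophage and stellate genes separate vehicle libraries 1 to 3 from 4 and 5 at 6 weeks.

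Duct cell genes leaned the same way with smaller values. Of 20 tested, 18 had a positive difference, with a median of 0.55, and 8 stood at an unadjusted p under 0.05, all positive. Of all genes 9.16% stood at that level on the positive side. At 18 weeks 9 of 20 rose (2.55% of all genes did). Clu, which encodes the secreted chaperone clusterin, was at 168, 125, 177, 325 and 123 CPM in cadmium and at 57.5, 83.8 and 102 CPM (lowest, median and highest) in vehicle libraries of 18 weeks. At 6 weeks Clu was at 161, 252, 234 and 205 CPM in cadmium and at 190.3, 208, 186, 146 and 207 CPM in vehicle libraries, so the groups were apart at 18 weeks and overlapped at 6. Its difference was 0.97 ± 0.31. The water channel Aqp1 had 2.64 ± 0.87, the tight-junction protein Cldn4 0.47 ± 0.16, the annexin Anxa3 0.64 ± 0.19 and the duct keratin Krt19 2.05 ± 0.87. With the acinar share as a covariate these values were 0.30 for Clu, 1.45 for Aqp1, 0.31 for Cldn4, 0.43 for Anxa3 and 0.76 for Krt19. Without cadmium libraries 3 and 4 of 18 weeks the list's median was 0.36, with 0.57 for Clu, 1.64 for Aqp1, 0.28 for Cldn4 and 0.97 for Krt19, and without vehicle libraries 1 to 3 of 6 weeks Aqp1 had 1.48.

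Macrophage and MHC class II genes, which belong to cells that engulf debris and present antigen, also differed in 1 direction, but from both sides. All 24 tested had a positive difference, with a median of 0.85, and 20 stood at an unadjusted p under 0.05 (9.16% of all genes did on the positive side). None of the 24 rose or fell at 18 weeks, where the median effect was 0.37, and none was called at 6 weeks, where all 24 effects lay below 0 with a median of -0.38 (50.1% of all genes lay above 0). Mrc1, the mannose receptor of tissue macrophages, was at 1.98, 3.86, 5.01, 6.68 and 1.96 CPM in cadmium and at 1.20, 1.81 and 3.45 CPM (lowest, median and highest) in vehicle libraries of 18 weeks. At 6 weeks Mrc1 was at 3.74, 5.15, 3.11 and 6.06 CPM in cadmium and at 23.4, 26.7, 23.7, 4.16 and 4.50 CPM in vehicle libraries. Vehicle libraries 1 to 3 of 6 weeks were far above all other libraries, and vehicle libraries 4 and 5 lay within the cadmium range.

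The haemoglobin scavenger receptor Cd163 had the same shape, with 14.0, 18.7 and 14.9 CPM in vehicle libraries 1 to 3 of 6 weeks and at most 2.70 CPM elsewhere. Without those 3 libraries the difference was 0.88 for Mrc1 instead of 2.81 ± 0.68, and 1.32 for Cd163 instead of 3.58 ± 0.90. The list's median was then 0.41 instead of 0.85. H2-Aa, an MHC class II chain, moved less, to 0.65 from 0.88 ± 0.22 with all libraries. Its level was 66.2, 102, 78.4, 61.6 and 51.1 CPM in cadmium and 44.0, 49.8 and 59.7 CPM (lowest, median and highest) in vehicle libraries of 18 weeks, against 59.6, 78.5, 52.2 and 71.3 CPM in cadmium and 104, 94.99, 78.0, 65.7 and 77.9 CPM in vehicle libraries of 6 weeks. Cadmium libraries were mostly the higher ones at 18 weeks and mostly the lower ones at 6 weeks, with overlap at both times. H2-Aa was 1 of the 141 genes called by all 4 analyses with the most calls. C1qb, of the complement C1q complex, had a difference of 1.11 ± 0.28, the macrophage receptor Adgre1 0.97 ± 0.36 and the invariant chain Cd74 0.74 ± 0.23. Without vehicle libraries 1 to 3 of 6 weeks these 3 values were 0.50, 0.32 and 0.44.

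Lymphocyte and plasma cell genes had large differences on few counts. All 24 lymphocyte genes tested were positive, with a median of 2.49 and 14 at an unadjusted p under 0.05, and all 16 plasma cell and immunoglobulin genes were positive, with a median of 5.24 and 13 at that level. On the positive side 9.16% of all genes stood at that level. One gene of each list rose at 18 weeks, 1 of 24 and 1 of 16, beside 2.55% of all genes. With 1 library left out the medians ran from 1.92 to 3.22 for lymphocyte and from 2.45 to 6.08 for plasma cell genes, the lowest being those without cadmium library 2 and without cadmium library 3 of 18 weeks. Without vehicle libraries 1 to 3 of 6 weeks they were 1.77 and 4.26. Trbc2, a T cell receptor constant region, was at 0.0399, 1.09, 2.63, 0.146 and 0.0434 CPM in cadmium and at 0, 0.0587 and 0.586 CPM (lowest, median and highest) in vehicle libraries of 18 weeks. At 6 weeks it was at 0.123, 0.254, 0.0360 and 0.0610 CPM in cadmium and at 0.525, 0.143, 0.475, 0.187 and 0.187 CPM in vehicle libraries. Cadmium libraries 2 and 3 of 18 weeks stood above all others and the remaining 3 within the vehicle range. Its difference was 4.05 ± 1.35, and those of the T cell genes Cd3e, Trbc1 and of the cytokine gene Ltb were 3.89 ± 1.36, 3.84 ± 1.39 and 3.33 ± 1.18.

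Among immunoglobulin genes, Ighg1 had 0, 13, 613, 1 and 0 counts in the cadmium libraries and 9 or fewer counts in every vehicle library of 18 weeks. At 6 weeks it had 17, 2, 0 and 74 counts in cadmium and 171, 399, 28, 44 and 0 counts in vehicle libraries. A single library, cadmium library 3 of 18 weeks, carried nearly all of its counts at that time. Fitted fold changes of such genes depend on the prior count and are no bound. Igha, the heavy chain of secreted antibody, was at 0, 18.9, 3.20, 0.850 and 0 CPM in cadmium libraries of 18 weeks, so here cadmium library 2 led. Immunoglobulin segments are near-identical copies and their counts are uncertain. The light chain regions Iglc2 and Iglc3 had differences of 5.28 ± 1.48 and 5.54 ± 1.63.

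Stromal and vascular genes showed positive differences in lists where vehicle libraries 1 to 3 of 6 weeks again stood high. Of 28 stellate and fibroblast genes 26 were positive, with a median of 1.41 and 18 at an unadjusted p under 0.05, and of 22 endothelial genes 19 were positive, with a median of 0.28 and 11 at that level. On the positive side 9.16% of all genes stood at that level. None of either list was called at 18 weeks, at 6 weeks or for the difference in the edgeR fit. Des, the muscle-type filament desmin of stellate cells, was at 2.17, 3.63, 6.49, 4.93 and 3.13 CPM in cadmium and at 1.73, 2.19 and 3.84 CPM (lowest, median and highest) in vehicle libraries of 18 weeks. At 6 weeks Des was at 5.28, 5.41, 3.87 and 3.35 CPM in cadmium and at 13.3, 12.3, 7.06, 4.20 and 4.69 CPM in vehicle libraries. Vehicle libraries 1 to 3 of 6 weeks were again the highest, and the groups overlapped at both times. Des had a difference of 1.64 ± 0.46, the smooth-muscle gene Tagln 2.21 ± 0.64, the matrix protein gene Sparc 0.57 ± 0.17 and the IGF-binding protein gene Igfbp4 1.77 ± 0.57. Without vehicle libraries 1 to 3 of 6 weeks the medians were 0.56 for stellate and fibroblast and 0.08 for endothelial genes, and the values were 0.75 for Des, 1.21 for Tagln, 0.26 for Sparc and 0.81 for Igfbp4. Without cadmium libraries 3 and 4 of 18 weeks the stellate and fibroblast median was 0.50 and Igfbp4 had 1.06. The endothelial genes Erg, Egfl7, Sox18 and Sox17, of which all but Egfl7 encode transcription factors, had differences of 0.54 ± 0.17, 0.50 ± 0.17, 0.52 ± 0.19 and 0.95 ± 0.37, and without vehicle libraries 1 to 3 of 6 weeks 0.34, 0.25, 0.26 and 0.48.

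Class I antigen presentation genes had a median difference of 0.49, with 18 of 20 positive and 13 at an unadjusted p under 0.05, and 2 of the 20 rose at 18 weeks. Of all genes 9.16% stood at that level on the positive side and 2.55% rose. Psmb10, a subunit of the immunoproteasome, was at 14.0, 14.4, 25.3, 30.6 and 14.4 CPM in cadmium and at 8.25, 10.8 and 11.8 CPM (lowest, median and highest) in vehicle libraries of 18 weeks. At 6 weeks Psmb10 was at 15.7, 19.0, 15.4 and 28.6 CPM in cadmium and at 29.2, 23.6, 21.1, 14.2 and 15.9 CPM in vehicle libraries. All cadmium libraries of 18 weeks lay above all vehicle libraries of that time, and the 6-week groups overlapped. Its difference was 0.99 ± 0.33, and the class I genes H2-T23 and H2-D1 and the peptide transporter Tap1 had 0.52 ± 0.15, 0.46 ± 0.14 and 0.53 ± 0.18. Without vehicle libraries 1 to 3 of 6 weeks the list's median was 0.23, with 0.54 for Psmb10, 0.32 for H2-T23 and 0.25 for H2-D1. Without cadmium libraries 3 and 4 of 18 weeks Psmb10 had 0.53.

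As a list, metallothionein and zinc-handling genes shared no direction, although Mt1 and Mt2 both had a positive difference. Of 25 metallothionein and zinc-handling genes tested, 13 had a positive difference, with a median of 0.04; 6 stood at an unadjusted p under 0.05 on the positive side (9.16% of all genes did) and 2 on the negative side (7.6% did). At 18 weeks 6 of the 25 rose (2.55% of all genes did), among them both metallothioneins. Mt1 was at 242, 161, 212, 356 and 206 CPM in cadmium and at 82.8, 124 and 200 CPM (lowest, median and highest) in vehicle libraries of 18 weeks, and at 206, 223, 236 and 177 CPM in cadmium and at 171, 177, 160.4, 135 and 260.2 CPM in vehicle libraries of 6 weeks. The highest vehicle library exceeded cadmium library 2 at 18 weeks, and the 6-week groups overlapped widely. The 18-week effect was 0.82 (adjusted p = 0.0457) and the difference 0.60 ± 0.34 (adjusted p = 0.365), or 0.38 without cadmium libraries 3 and 4 of 18 weeks.

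Mt2 was at 5.87, 4.01, 5.72, 9.10 and 4.17 CPM in cadmium and at 1.27, 2.31 and 4.26 CPM (lowest, median and highest) in vehicle libraries of 18 weeks. At 6 weeks it was at 40.5, 49.1, 55.3 and 31.1 CPM in cadmium and at 36.6, 38.2, 32.9, 25.1 and 59.7 CPM in vehicle libraries. The 18-week levels of Mt2 lay far below the 6-week levels in both arms, which the levels of Mt1 did not. The effect at 18 weeks was 1.06 (adjusted p = 0.0348), at 6 weeks 0.19, and the difference 0.87 ± 0.37 (adjusted p = 0.254), or 0.57 without cadmium libraries 3 and 4 of 18 weeks. The zinc exporter gene Slc30a1, another target of MTF1, had a difference of 0.04 ± 0.16, with a 95% interval from -0.28 to 0.37, and changed sign under several settings. The haem oxygenase gene Hmox1, a stress gene that cadmium is known to induce, had 0.28 ± 0.32, or 0.017 without cadmium libraries 3 and 4 of 18 weeks.

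The metallothionein promoters are shown because their genes are the textbook read-out of cadmium. The windows are the 250 bases before the RefSeq start on the plus strand of GRCm38.p6, chr8:94178839-94179088 for Mt1 and chr8:94172368-94172617 for Mt2, and capitals mark the core of the metal response element that MTF1 binds, TGCACNC or TGCGCNC, on either strand.
Mt1: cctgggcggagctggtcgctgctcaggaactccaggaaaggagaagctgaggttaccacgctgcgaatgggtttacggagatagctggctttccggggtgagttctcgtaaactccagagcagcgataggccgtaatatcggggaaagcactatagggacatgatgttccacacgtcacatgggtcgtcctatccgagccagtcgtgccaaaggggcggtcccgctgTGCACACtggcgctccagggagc
Mt2: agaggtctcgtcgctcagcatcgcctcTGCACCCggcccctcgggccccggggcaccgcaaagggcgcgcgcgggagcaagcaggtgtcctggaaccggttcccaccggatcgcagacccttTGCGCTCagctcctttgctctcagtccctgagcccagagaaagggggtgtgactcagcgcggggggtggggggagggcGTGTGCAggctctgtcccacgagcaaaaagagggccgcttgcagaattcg
The Mt1 window holds 1 core, 23 bases before the RefSeq start, and the Mt2 window holds 3, at 223, 128 and 50 bases before it. These counts hold for the windows alone, since bases after each window were not searched. In the annotation used for the counts Mt1 starts at 94179082 and Mt2 at 94172664, the latter past the end of its window. The windows therefore do not show how many elements either gene has, or which has more. At least 1 core occurs in 21.4% and at least 3 occur in 1.26% of the 32851 windows. These letters are a description of the windows, and no binding was measured.

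The larger differences of the zinc list belonged to transporters that acinar cells also express. Slc39a5, a zinc importer of the basolateral membrane, was at 6.72, 4.12, 18.5, 41.8 and 14.6 CPM in cadmium and at 0.911, 2.09 and 4.52 CPM (lowest, median and highest) in vehicle libraries of 18 weeks, with a difference of 2.31 ± 0.66. Slc30a2, a vesicular zinc transporter, had 2.36 ± 0.57 on at most 29 counts in any 18-week library. Both had their highest level at 18 weeks in cadmium library 4, the library with the highest acinar share. Beside the acinar share in the same fit, the Slc39a5 value was -0.15 and that of Slc30a2 0.80. Without cadmium libraries 3 and 4 of 18 weeks Slc39a5 had 1.26. Slc39a11 and Slc39a3, importers of the same family, had 0.46 ± 0.16 and 0.25 ± 0.09, the first 0.25 without cadmium libraries 3 and 4.

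Hormone genes did not differ detectably. Ins2, an insulin gene, was at 62070 to 109900 CPM in cadmium and 55380 to 92850 CPM in vehicle libraries of 18 weeks, and at 138800 to 162400 CPM in cadmium and 143400 to 166200 CPM in vehicle libraries of 6 weeks. The groups overlapped at both times. Its difference was 0.24 ± 0.21, with a 95% interval from -0.20 to 0.69, and that of Ins1 0.17 ± 0.16, from -0.16 to 0.51; the counts of these near-identical genes are uncertain. Glucagon (Gcg) had -0.23 ± 0.19, from -0.62 to 0.15, and somatostatin (Sst) -0.01 ± 0.20, from -0.43 to 0.41. Pancreatic polypeptide (Ppy) was at 2179, 1743, 1533, 2461 and 1754 CPM in cadmium and at 793, 1379 and 1623 CPM (lowest, median and highest) in vehicle libraries of 18 weeks, and at 3059, 2475, 2584 and 2406 CPM in cadmium and 2373, 3517, 2192, 2101 and 2005 CPM in vehicle libraries of 6 weeks. Cadmium libraries were mostly the higher at 18 weeks, with overlap at both times, and the difference was 0.50 ± 0.26, from -0.04 to 1.04, or 0.26 without vehicle libraries 1 to 3 of 6 weeks.

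Beta cell identity genes leaned slightly negative. Of 29 tested, 22 had a negative difference, with a median of -0.11, and 3 stood at an unadjusted p under 0.05, all negative (7.6% of all genes did). None was called at either time. Nkx2-2, a transcription factor of endocrine cells, was at 36.2, 28.6, 30.4, 23.4 and 33.7 CPM in cadmium and at 26.7, 36.2 and 39.1 CPM (lowest, median and highest) in vehicle libraries of 18 weeks. At 6 weeks Nkx2-2 was at 108, 112, 121 and 121 CPM in cadmium and at 99.6, 105, 93.0, 108 and 98.5 CPM in vehicle libraries. Cadmium libraries overlapped the vehicle range at 18 weeks and stood at or above its top at 6 weeks. Its difference was -0.39 ± 0.15, that of the stress-responsive factor Foxo1 -0.25 ± 0.11, of the prolactin receptor gene Prlr -0.41 ± 0.19 and of the endocrine factor Insm1 -0.31 ± 0.16. Pdx1 and Mafa, factors that drive insulin transcription, had -0.10 ± 0.13 and -0.19 ± 0.19. Slc2a2, the glucose transporter, and Slc30a8, the zinc transporter of insulin granules, had -0.06 ± 0.20 and -0.20 ± 0.13.

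Genes that mature beta cells keep low, often called disallowed genes, had a median difference of 0.85, with 15 of 16 positive, 9 at an unadjusted p under 0.05, and 5 that rose at 18 weeks (Ldha, Mgst1, Oat, Hk2 and Slc16a1). Of all genes 9.16% stood at that level on the positive side and 2.55% rose. Ldha, lactate dehydrogenase A, was at 9.22, 13.4, 18.4, 20.1 and 9.43 CPM in cadmium and at 5.91, 6.61 and 8.06 CPM (lowest, median and highest) in vehicle libraries of 18 weeks. At 6 weeks Ldha was at 15.1, 10.7, 9.23 and 8.58 CPM in cadmium and at 14.5, 14.3, 11.1, 7.85 and 9.50 CPM in vehicle libraries. The cadmium libraries of 18 weeks all lay above vehicle, the higher ones being libraries 3 and 4, and the 6-week groups overlapped. The differences were 1.12 ± 0.31 for Ldha, 1.79 ± 0.53 for the glutathione transferase gene Mgst1, 0.73 ± 0.22 for the ornithine aminotransferase gene Oat and 1.74 ± 0.53 for the transcription factor gene Maf. Acinar, stromal and immune cells express these genes too, and whether such cells account for the values was not tested. The median was 0.49 without cadmium libraries 3 and 4 of 18 weeks and 0.45 without vehicle libraries 1 to 3 of 6 weeks. In the first case Ldha had 0.73, Mgst1 1.02 and Oat 0.46, and in the second Ldha had 0.74 and Maf 0.47. With the acinar share as a covariate Ldha had 0.70, Mgst1 0.97, Oat 0.32 and Maf 1.51.

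**Figure D3:**
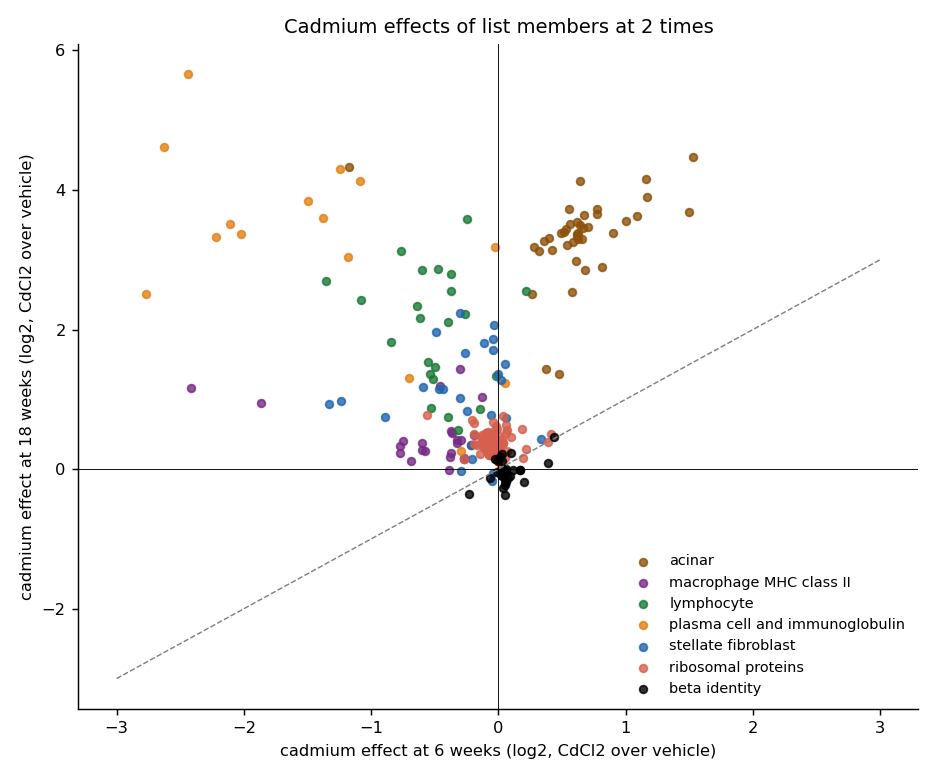
Cadmium effect at 18 weeks against the effect at 6 weeks, both log2 cadmium over vehicle, for the genes of 7 lists; each point is 1 gene and the dashed line marks equal effects. All 40 acinar genes lie above the line with a median difference of 2.77, and beta identity genes lie near it with a median of -0.11.

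Among single genes, those with the smallest p for a positive difference had mixed roles. Dusp26, a dual-specificity phosphatase, was at 22.8, 21.9, 27.5, 35.7 and 24.9 CPM in cadmium and at 12.9, 16.3 and 16.7 CPM (lowest, median and highest) in vehicle libraries of 18 weeks. At 6 weeks Dusp26 was at 27.8, 29.9, 26.1 and 30.5 CPM in cadmium and at 30.9, 33.2, 25.2, 25.4 and 31.6 CPM in vehicle libraries. Every cadmium library of 18 weeks exceeded every vehicle library of that time, and the 6-week groups overlapped. The difference was 0.79 ± 0.16, nearly all of it from the 18-week effect of 0.75, and its value without cadmium libraries 3 and 4 of 18 weeks was 0.59. Its adjusted p was 0.155 in the edgeR fit, as was that of each of the 10 genes of smallest p in either direction.

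Lgals1, the carbohydrate-binding galectin-1, was at 9.55, 5.75, 14.4, 24.2 and 5.65 CPM in cadmium and at 2.21, 2.46 and 4.29 CPM (lowest, median and highest) in vehicle libraries of 18 weeks, against 8.71, 8.94, 7.86 and 9.11 CPM in cadmium and 13.0, 11.4, 9.05, 6.15 and 7.86 CPM in vehicle libraries of 6 weeks. Mxra8, a membrane protein of matrix remodelling, was at 13.0, 12.7, 16.1, 18.2 and 11.5 CPM in cadmium and at 7.62, 10.2 and 10.4 CPM (lowest, median and highest) in vehicle libraries of 18 weeks, against 10.2, 10.8, 9.96 and 11.8 CPM in cadmium and 13.6, 12.6, 11.7, 11.8 and 10.9 CPM in vehicle libraries of 6 weeks. Both genes were apart between the arms at 18 weeks and overlapped at 6 weeks. Their differences were 2.18 ± 0.45 for Lgals1 and 0.77 ± 0.17 for Mxra8, or 1.42 and 0.56 without cadmium libraries 3 and 4 of 18 weeks. Ifitm3, an interferon-induced membrane protein, had 1.45 ± 0.32, but 0.75 without vehicle libraries 1 to 3 of 6 weeks, where it stood at 17.1, 16.4 and 14.9 CPM against 7.19 and 8.42 CPM in vehicle libraries 4 and 5. Lfng, which adds sugars to Notch receptors, had 1.75 ± 0.36, and Fetub, a secreted protease inhibitor, 2.61 ± 0.52 on at most 1.17 CPM in any library. All 5 of these genes and Dusp26 rose at 18 weeks.

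The remaining 4 of the 10 genes of smallest p on the positive side rested on few counts. Cbr2, a carbonyl reductase, had 2, 19, 23, 39 and 4 counts in cadmium and 5 or fewer in every vehicle library of 18 weeks, against 40, 42, 31 and 52 in cadmium and 298, 278, 285, 43 and 52 in vehicle libraries of 6 weeks. Cd209f, a C-type lectin gene, had 24 or fewer counts in every 18-week library and again more in vehicle libraries 1 to 3 of 6 weeks (112, 81 and 67) than in 4 and 5 (26 and 17). The immunoglobulin segment Ighv5-4 had 0, 7, 119, 17 and 0 counts in the cadmium libraries of 18 weeks and at most 1 in vehicle. The last of the 4 was Cpa3, described with the acinar genes.

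**Figure D4:**
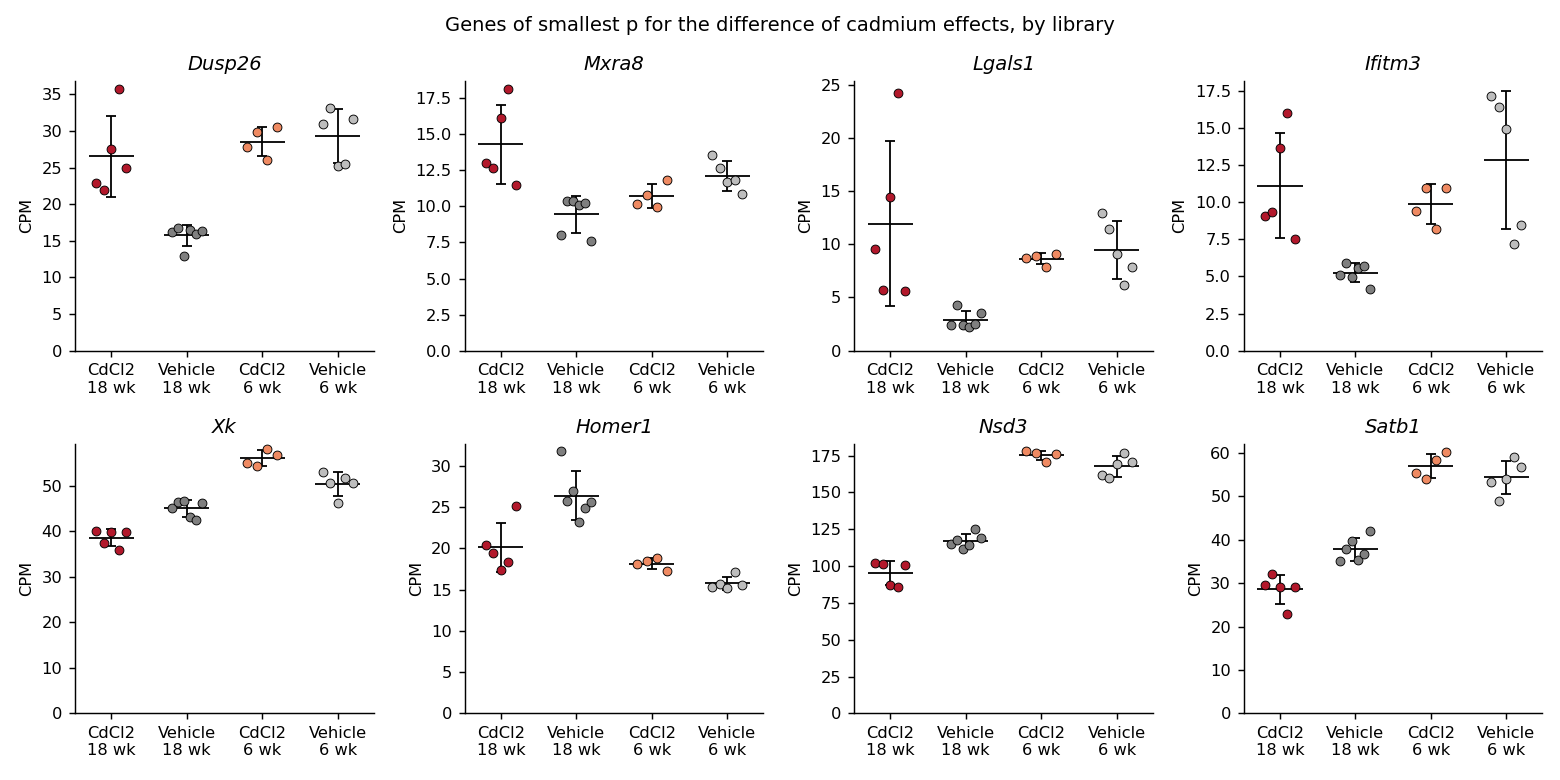
CPM in each of the 20 libraries for 4 genes with a positive difference (Dusp26, Mxra8, Lgals1, Ifitm3) and 4 with a negative one (Xk, Homer1, Nsd3, Satb1); bars are means ± SD. At 18 weeks cadmium libraries lie above vehicle for the first 4, below it for Xk, Nsd3 and Satb1, and mostly below it for Homer1.

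On the negative side, 8 of the 10 genes of smallest p had differences between -0.71 and -0.36, and Muc6 and Hm629797 had larger ones on few counts or few libraries. Xk, a membrane protein that pairs with the Kell blood group protein, was at 39.97, 37.5, 39.8, 35.9 and 39.9 CPM in cadmium and at 42.5, 45.6 and 46.6 CPM (lowest, median and highest) in vehicle libraries of 18 weeks. At 6 weeks Xk was at 54.9, 54.3, 58.1 and 56.7 CPM in cadmium and at 53, 50.5, 46.1, 51.8 and 50.5 CPM in vehicle libraries. Cadmium lay below every vehicle library at 18 weeks and above every one at 6 weeks. The difference was -0.37 ± 0.07, from -0.22 at 18 weeks, where Xk fell, and 0.15 at 6 weeks, which was not called. Homer1, a synaptic scaffold protein, was at 20.4, 19.4, 17.4, 18.3 and 25.1 CPM in cadmium and at 23.2, 25.7 and 31.9 CPM (lowest, median and highest) in vehicle libraries of 18 weeks, against 18.1, 18.4, 18.8 and 17.3 CPM in cadmium and 15.3, 15.7, 15.2, 17.1 and 15.6 CPM in vehicle libraries of 6 weeks. Here 4 of 5 cadmium libraries lay below vehicle at 18 weeks and all 4 above it at 6 weeks, with a difference of -0.60 ± 0.13.

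Nsd3, a histone methyltransferase, was at 102, 101, 87.1, 85.7 and 101 CPM in cadmium and at 112, 116 and 125 CPM (lowest, median and highest) in vehicle libraries of 18 weeks, against 178, 176, 171 and 176 CPM in cadmium and 162, 159.7, 169, 176 and 171 CPM in vehicle libraries of 6 weeks. It was lower in every cadmium library at 18 weeks, with overlap at 6 weeks, and its difference was -0.36 ± 0.08. The chromatin organizer Satb1 had -0.47 ± 0.11, Mbtd1, of a histone acetyltransferase complex, -0.41 ± 0.09, the corepressor Lcor -0.47 ± 0.11, Cxxc4, a CXXC zinc finger protein that restrains Wnt signalling, -0.62 ± 0.15 and the NF-κB subunit Rel -0.71 ± 0.17. Rel stood apart at 6 weeks, at 9.08, 12.6, 9.39 and 11.3 CPM in cadmium against 7.22, 8.05, 7.38, 8.44 and 7.53 CPM in vehicle libraries, and overlapped at 18 weeks. All 6 of these genes but Rel fell at 18 weeks, and none was called there without cadmium libraries 3 and 4. The largest value among the 10 was that of Muc6, a gel-forming mucin, at -4.84 ± 1.12. It came from cadmium libraries 3 and 4 of 6 weeks, at 62.3 and 15.2 CPM, since no other library passed 2.01 CPM. Hm629797 was the other gene named on this side and had at most 6 counts in any 6-week library.

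The direction of the difference went with base composition and transcript length. Over 15403 protein-coding genes cut into 4 bins of equal size by transcript GC content, the median difference was -0.14, -0.01, 0.11 and 0.19 from the lowest to the highest bin, and 27.2, 48.8, 71.8 and 80.7% of genes were positive. By transcript length it was 0.16, 0.08, 0.02 and -0.08 from the shortest to the longest bin. The 49 positive genes called by all 4 analyses with the most calls had a median transcript length of 1918 bases and 53.2% GC. The 92 negative ones had 7310 bases and 42.4%, beside 3363 bases and 49.8% for all protein-coding genes tested. With per-library offsets for GC content the edgeR fit called 0 genes, with 2947 at an unadjusted p under 0.05. The differences were then 0.57 for Dusp26 and 0.53 for Mxra8, instead of 0.79 and 0.77. They were -0.20 for Homer1, -0.22 for Cxxc4 and -0.21 for Mbtd1, instead of -0.60, -0.62 and -0.41. Nsd3 stayed at -0.36, and Satb1 had -0.40 instead of -0.47. The part of composition and length in the single-gene results beyond these values was not tested.

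The first 120 coding bases of 2 positive genes and 1 negative gene illustrate this contrast in composition, with G and C in capitals (GENCODE vM21, GRCm38, all on the plus strand). Dusp26 lies at chr8:31089471-31097047, Mxra8 at chr4:155839680-155844088 and Mbtd1 at chr11:93885852-93946985.
Dusp26: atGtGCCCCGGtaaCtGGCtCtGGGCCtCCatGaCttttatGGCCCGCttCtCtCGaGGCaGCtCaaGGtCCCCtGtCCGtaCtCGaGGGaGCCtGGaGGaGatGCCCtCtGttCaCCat
Mxra8: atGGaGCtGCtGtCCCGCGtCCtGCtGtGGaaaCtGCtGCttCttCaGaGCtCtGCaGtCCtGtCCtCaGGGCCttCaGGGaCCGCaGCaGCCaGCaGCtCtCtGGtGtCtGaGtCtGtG
Mbtd1: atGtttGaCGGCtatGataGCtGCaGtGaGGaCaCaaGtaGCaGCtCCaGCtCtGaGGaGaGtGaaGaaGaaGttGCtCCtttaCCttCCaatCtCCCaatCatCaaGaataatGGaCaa
The share of G and C in these stretches was 60.0% for Dusp26 and 60.8% for Mxra8, with a positive difference, and 45.0% for Mbtd1, with a negative one. The whole transcripts were 1938 bases long for Dusp26, 2203 for Mxra8 and 5245 for Mbtd1, with 58.1, 56.8 and 40.2% GC.

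**Figure D5:**
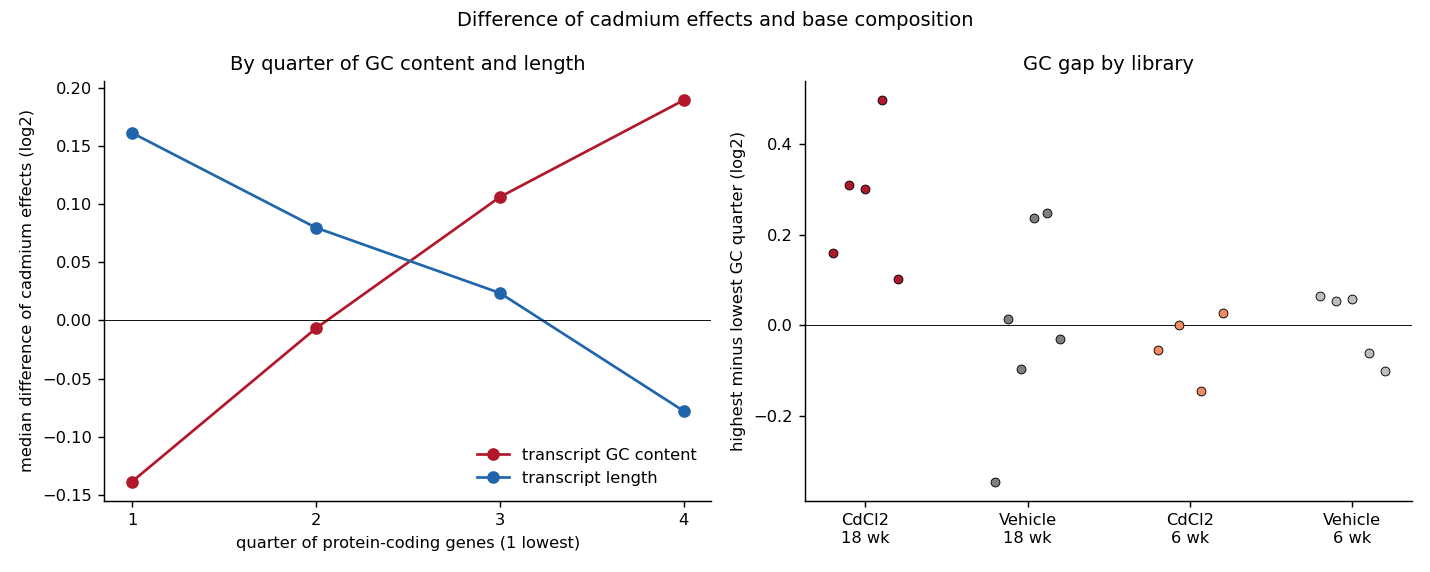
Left, median difference of cadmium effects (log2) by bin of transcript GC content (4 bins of equal size) and of transcript length, as separate lines, over 15403 protein-coding genes. Right, by library, the gap between high-GC and low-GC genes; all 5 cadmium libraries of 18 weeks are above 0, from 0.10 to 0.50, and the vehicle libraries of that time run from -0.35 to 0.25.

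Per library, each gene's log2 deviation from the vehicle mean of the same time was taken, and the median over the highest GC bin less that over the lowest was 0.16, 0.31, 0.30, 0.50 and 0.10 in cadmium libraries of 18 weeks. It was -0.35, 0.01, -0.10, 0.24, 0.25 and -0.03 in vehicle libraries of 18 weeks, -0.06, 0.00, -0.15 and 0.03 in cadmium libraries of 6 weeks and 0.06, 0.05, 0.06, -0.06 and -0.10 in vehicle libraries of 6 weeks. Vehicle libraries 4 and 5 of 18 weeks lay within the cadmium range. Outside protein-coding genes, the 1608 loci that the annotation classes as TEC, with unproven transcripts, had a median difference of -0.55 with 18.8% positive, and 191 sense-intronic genes a median of -0.47. The sources used here do not say whether counting used strand, so reads of overlapping genes cannot be told apart.

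Ribosomal protein genes, with short transcripts, nearly all had a positive difference. Of 74 tested, 72 were positive, with a median of 0.40, 44 stood at an unadjusted p under 0.05 and 33 rose at 18 weeks. Among all genes 9.16% stood at that level on the positive side and 2.55% rose. The list's mean log2 deviation from the vehicle mean was 0.56, 0.28, 0.47, 0.60 and -0.07 in cadmium libraries of 18 weeks. In vehicle libraries of that time it reached 0.22, so cadmium library 5 lay within the vehicle range. Rpl3, of the large subunit, was at 432, 367, 356, 419 and 278 CPM in cadmium and at 257, 286 and 324 CPM (lowest, median and highest) in vehicle libraries of 18 weeks. At 6 weeks Rpl3 was at 19.9, 19.8, 16.6 and 21.6 CPM in cadmium and at 23.8, 21.8, 23.04, 21.3 and 21.4 CPM in vehicle libraries. Cadmium libraries 1 to 4 lay above every vehicle library at 18 weeks and library 5 within their range, and the 6-week groups overlapped with cadmium mostly lower. The difference was 0.56 ± 0.14 for Rpl3, 0.42 ± 0.11 for Rpl18 and 0.60 ± 0.16 for Rpl13. The list also stood 3.41 higher (median log2) in vehicle at 18 than at 6 weeks, and reads of these genes can also fit their pseudogenes. Rpl13, of the same subunit, stood at 198 to 329.9 CPM in cadmium and 162 to 242 CPM in vehicle libraries of 18 weeks, against 6.90 to 7.63 CPM and 7.47 to 8.42 CPM at 6 weeks. Rpl3, Rpl18 and Rps9 were among the 141 called by all 4 analyses with the most calls.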

How the data were processed

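RNA-seq libraries of 20 in vivo islet samples were analysed from raw counts per Ensembl gene, deposited by the authors without normalization. The submitters' processing notes name cutadapt 1.13, STAR, HTSeq 0.6.1p1, DESeq2 and build mm10; the sources used here do not give parameters or the strand setting. Of 54232 gene IDs, 54079 (99.72%) matched a symbol. Genes were kept by filterByExpr (minimum count 10, minimum total 15), scaled by TMM and fitted in edgeR 4.0.16 (R 4.3.3; quasi-likelihood) on 4 groups without covariates; Benjamini-Hochberg adjusted p under 0.05 over 22306 genes was called. CPM values are TMM-scaled. No 2 libraries of a group were alike (lowest chi-square per degree of freedom 15.3 over 41 pairs). Alternatives used DESeq2 1.42.0, limma 3.58.1, other scalings, filters, covariates and left-out libraries. On simulated data the fit recovered 16, 72, 86 and 96% of differences of 0.5, 1, 2 and 3 log2 (50 genes each, 21927 genes tested). These data had 1 spread per gene for all groups and no shifts shared by genes within a library.

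Named genes are the 10 of smallest p in each direction (predicted and clone names left out), the 4 of smallest p per described list, and a fixed panel. Members and lists were chosen with earlier results of these data known. Lists were described by counts and medians only, with no test.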

Additional observations from a re-analysis of the deposited data

Results flagged for a closer look

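In each group of 4 to 6 libraries the highest and the lowest value were compared with their nearest neighbour, relative to the group's range, for 92 named genes and 12 list shares. Of 416 groups tested 20 held a library that stood apart, and chance gives about 1 in 20. The levels are CPM and no explanation was tested.

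In vehicle libraries of 18 weeks, library 2 stood apart for Cpa3 (0.0174) and Igfbp4 (6.54), library 3 for Dusp26 (12.9), library 4 for Cxxc4 (69.0) and Ighg1 (0.586), library 5 for Ighv5-4 (0.0187) and library 6 for Maf (1.27) and Slc30a1 (25.5). Vehicle library 2 of that time also held 0.00744% of its counts in disallowed genes, above the others. In cadmium libraries of 18 weeks, library 1 stood apart for Rel (4.55), library 3 for Ighg1 (13.5) and for its plasma cell share (0.120% of counts), library 4 for Cxxc4 (51.4) and Prlr (322) and library 5 for C1qb (9.95). In cadmium libraries of 6 weeks, library 3 stood apart for Fetub (0.629) and library 4 for Krt19 (2.36). In vehicle libraries of 6 weeks, library 1 stood apart for Ltb (1.67) and library 4 for Lfng (2.18) and Homer1 (17.1).

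For a pair of lists every cadmium library of 18 weeks held a larger share of counts than the vehicle mean of that time, and every cadmium library of 6 weeks a smaller share than its vehicle mean. These were the stellate and fibroblast genes, whose cadmium-to-vehicle ratio at 18 weeks was 1.37 times that at 6 weeks, and the disallowed genes, where it was 1.65 times. The difference was not tested. The vehicle means of 6 weeks include libraries 1 to 3, which stood apart. Against vehicle libraries 4 and 5 alone (0.0466 and 0.0478% of counts for stellate and fibroblast genes, 0.00713 and 0.00803% for disallowed genes), 3 of the 4 cadmium libraries of 6 weeks held larger shares of both lists.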

How the results depend on the processing

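The count of 0 genes called for the difference became 341 with DESeq2, 387 with limma-voom, 382 with all 30 libraries, 814 without the 3 shallowest libraries and 1 after thinning to the lowest depth, and ranged from 0 to 28 with 1 library left out (28 without cadmium library 5 of 18 weeks). It was 0 with other size factors, robust dispersion, no filter, acinar and Reg genes dropped, the acinar covariate, the replicate block, either GC correction, and without vehicle libraries 1 to 3 of 6 weeks or cadmium libraries 3 and 4 of 18 weeks. The 820 calls of the 18-week effect became 2122 with DESeq2, 2496 with all 30 libraries, 2826 without the shallowest libraries, 479 after thinning, 160 with the replicate block, 0 with the acinar covariate, 447 and 400 with GC and with GC and length offsets, 441 without vehicle libraries 1 to 3 of 6 weeks, 28 without cadmium libraries 3 and 4 and 75 from the 18-week libraries alone, and ranged from 150 to 2232 with 1 library left out (150 without cadmium library 4, 259 without 3, 1300 without 1 and 2232 without 5; 322, 481, 1828 and 341 without vehicle library 1, 3, 4 and 6). The 6-week effect had 3 calls with DESeq2, 1 without a filter and 1 with all 30 libraries, and 0 to 2 with 1 library left out. The cause of these changes was not tested; corrections for GC, the leaving out of vehicle libraries 1 to 3 of 6 weeks and of cadmium libraries 3 and 4 of 18 weeks, and the 18-week fit alone were chosen after seeing the data. Replicate numbers are shared by the groups. Over 27 same-numbered pairs, most of them across times, deviations had a median correlation of 0.003, from -0.265 to 0.265. Pairs of unlike number had a median of -0.007. Between vehicle and cadmium libraries of 18 weeks, numbers 1 to 5 had 0.265, 0.003, -0.111, 0.137 and 0.207. At 6 weeks numbers 1 to 4 had 0.038, 0.067, -0.01 and 0.121. Whether a shared number marks a pairing or a batch was not tested. Of 92 named genes 83 kept the sign of the difference in every one of the 35 settings in which they were fitted. Some were not fitted in all of them, such as Cd3e, fitted in 31. Many were named for a small p in this same contrast, so a stable sign was likely from the start. The others changed sign as follows: Slc30a1 to -0.020 with limma-voom, -0.0097 with the replicate block and -0.030 without the shallowest libraries; Sst to 0.0029 without a filter, 0.029 with the block, 0.29 with the acinar covariate, 0.17 without the shallowest libraries and 0.11 without cadmium libraries 3 and 4; Slc2a2 to 0.13 with the acinar covariate, 0.085 with GC and 0.11 with GC and length offsets, 0.23 without vehicle libraries 1 to 3 of 6 weeks and 0.011 without cadmium libraries 3 and 4. Pdx1 was at 0.0064 without cadmium libraries 3 and 4, and with the acinar covariate Slc39a5 was at -0.15, Hmox1 at -0.032, Try4 at -0.12, Cpa1 at -0.0071 and Ptf1a at -0.68. With 1 library left out Sst ran from -0.14 to 0.074, Slc2a2 from -0.17 to 0.019 and Slc30a1 from -0.077 to 0.11. With 4 to 6 libraries a group the median SE was 0.235, and 16% of differences of 0.5 log2 were recovered in simulation. The simulated libraries had no shared shifts in acinar share or GC content and the same spread per gene at both times. Recovery in the real libraries may therefore be lower. The real fit called 0 of the 40 acinar genes, whose median difference was 2.77.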

Other observations

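Gene groups not described above gave the following values for the difference, none of them with a member called in the edgeR fit. All 19 collagen genes were positive, with a median of 0.98 and 8 at an unadjusted p under 0.05, and all 6 genes of the Reg family of secreted lectins were positive, with a median of 2.47 and 2 at that level. Among all genes 9.16% stood at that level on the positive side. Mesothelial genes had 6 of 6 positive and a median of 1.83. Of 34 interferon response genes 32 were positive, with a median of 0.42. Immediate early genes, which answer many stimuli within minutes, had 26 of 27 positive and a median of 0.55, yet 0 stood at an unadjusted p under 0.05. Endoplasmic reticulum stress genes (24 tested, median -0.003), secretory granule genes (30 tested, median -0.01) and alpha, delta and PP cell markers (18 tested, median 0.005) lay around 0.

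Energy metabolism leaned weakly positive. Nuclear genes of oxidative phosphorylation had 33 of 38 positive with a median of 0.14 and 7 that rose at 18 weeks, and glycolysis and hypoxia genes 26 of 28 positive with a median of 0.24. Among all genes 49.7% had a positive difference and 2.55% rose, and among protein-coding genes 57.1% had a positive one. The oxidative phosphorylation genes had a median transcript length of 1483 bases. In the shortest of the 4 length bins of protein-coding genes the median difference was 0.16, with 72.5% positive. The median of 0.14 was thus no higher than that of short genes in general. A few members of such lists were among the 141 genes called by all 4 analyses with the most calls and are named after their values were seen. These were Ech1, an enzyme of fatty acid oxidation (0.40 ± 0.09), the pyruvate dehydrogenase kinase Pdk2 (0.54 ± 0.12), the thiolase Acaa2 (0.60 ± 0.16), the proteasome subunit Psmd4 (0.36 ± 0.10), the transcription factor Etv1 (-0.62 ± 0.15) and the calcium channel subunit Cacna2d1 (-0.38 ± 0.09). Etv1 averaged 43.0 ± 6.7 CPM in cadmium (SD, n = 5) and 62.2 ± 10.9 CPM in vehicle libraries of 18 weeks (SD, n = 6), against 56.1 ± 3.0 CPM in cadmium (SD, n = 4) and 52.5 ± 1.7 CPM in vehicle libraries of 6 weeks (SD, n = 5).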
